A study of Mus musculus with 6 samples.

Results

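The 36 genes described here encode the receptors, signalling proteins, transcription factors and granule proteins by which T cells, natural killer (NK) cells and B cells are recognised. They form a list of cell type markers chosen by name, and each was found through the transcript accession of its array probes. All 36 had a probe among the 22815 genes that could be named, and 24 of them were tested among 14701 genes, since the scanner software marked their probe as well above background throughout the saline group, the rhTM group or both, 3 arrays each. RNA came from whole hearts of male C57BL6 mice, 10 weeks old, that had been starved for 16 h and then given lipopolysaccharide (LPS, the endotoxin of Gram-negative bacteria, 20 mg/kg) into the peritoneum. The mice of one group received saline and those of the other rhTM (recombinant human thrombomodulin, a soluble version of the receptor with which endothelium turns thrombin towards activating protein C) at 3 and 24 h, and hearts were taken at 30 h. Each group held 3 mice with 1 array per mouse. All 6 mice had received LPS, so every difference below is rhTM against saline after LPS, and no untreated heart is among these arrays. Each value is a log2 signal from which the array's 75th percentile was subtracted, and differences are rhTM minus saline with the standard error (SE) of the fit (n = 3 and 3).

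T cells recognise peptides through an antigen receptor that signals through the CD3 chains and CD247, with CD4 or CD8 as coreceptor and the kinases LCK and ZAP70 as the first signalling steps. NK cells and cytotoxic T cells kill target cells by releasing perforin and granzymes from granules, and NK cells choose their targets through activating and inhibitory receptors, many of them encoded in the killer lectin-like receptor (Klr) cluster. B cells use an antigen receptor with CD79A and CD79B as its signalling chains. A healthy heart holds few lymphocytes beside many macrophages, and in sepsis lymphocytes are lost by apoptosis in blood and lymphoid organs. In whole-heart RNA, fewer cells of a type and less RNA per cell cannot be told apart.

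The arrays were not balanced between groups. Saline 1 and 2 were on slide 1 (scan 1), and saline 3 shared slide 2 (scan 2) with all rhTM arrays, so differences are also given against saline 3 alone, which is the value within slide 2 and rests on 1 saline array. The 75th percentile of the signal ran from 394 to 732, and 54.8% to 62.8% of 59305 spots per array were well above background. All 8 cardiomyocyte markers examined, among them the myosin gene Myh6 and the troponin gene Tnnt2, were well above background on every array, as the label heart requires.

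No lymphocyte gene of the 24 tested passed the test. Limma called 0 of them at an adjusted p under 0.05, against 2.75% of all genes called higher and 2.41% called lower, and 7 of the 24 had an unadjusted p under 0.05 against 4511 of all 14701 genes. The number of the 36 genes well above background was 19, 23 and 20 on saline 1, 2 and 3 and 25 on each rhTM array. Of all spots, 56.7%, 58.9% and 54.8% were so marked on those saline arrays and 62.8%, 60.6% and 57.1% on rhTM 1, 2 and 3. Of the 16 genes well above background on all 6 arrays, 15 had a higher mean with rhTM, compared with 48.6% of all genes measured that fully, and their median difference was 0.61 against -0.02. Set against saline 3 alone, 9 of the same 16 lay higher (48.6% of all such genes) with a median of 0.095. The other 8 genes tested entered through their rhTM arrays, so their direction was fixed in part by the filter. For saline 1 and 2, slide and group cannot be told apart.

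**Figure D1:**
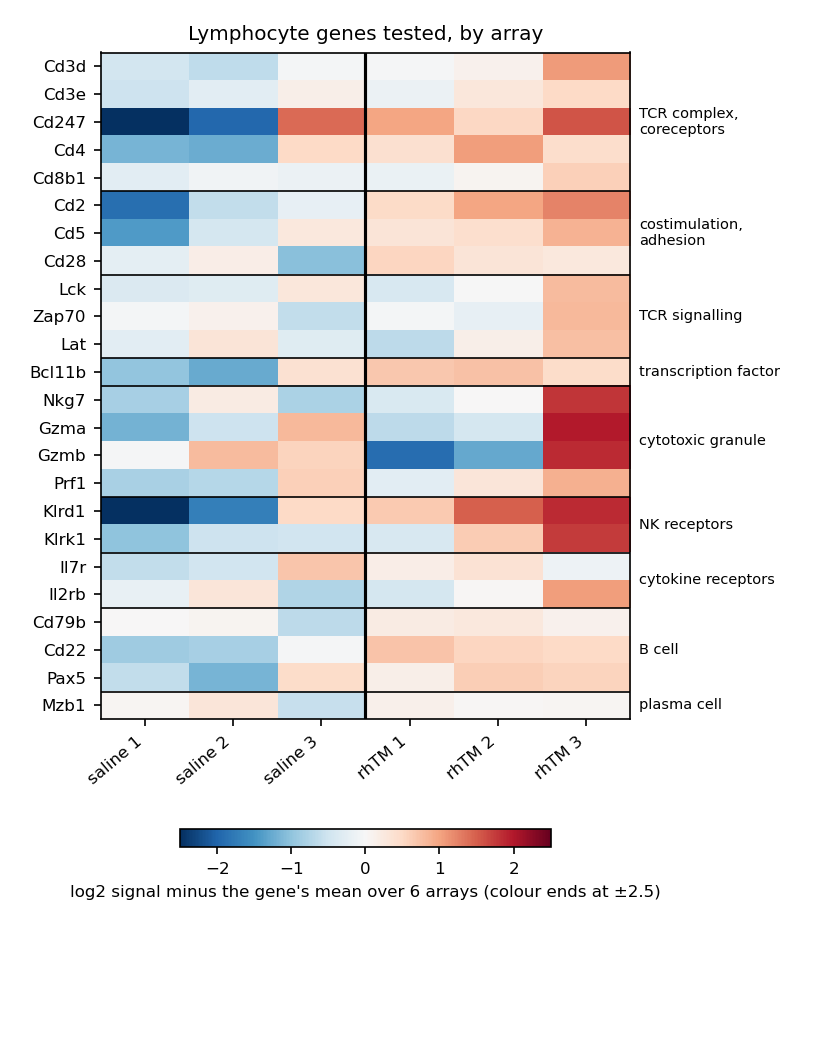
Heat map of the 24 lymphocyte genes tested (rows, grouped by role) on 6 arrays (columns), coloured by log2 signal minus the gene's own mean over the arrays. Saline 1 and 2 are low for Cd247, Cd4, Bcl11b and Klrd1 while saline 3 resembles the rhTM arrays, and rhTM 3 is the highest array for the granule genes.

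The T cell receptor complex and its coreceptors were measured in 5 of 7 genes, and none passed the test. Cd247, the zeta chain that carries most of the receptor's signalling motifs, lay at -0.95, -0.41 and 2.97 in saline mice 1, 2 and 3, against 2.54, 2.08 and 3.14 in rhTM mice 1, 2 and 3. Saline 3 thus stood inside the rhTM range while saline 1 and 2 were far below it. The difference of 2.05 ± 1.00 did not pass (adjusted p = 0.211), and within slide 2 the sign turned to -0.38. Cd4, the coreceptor of helper T cells, lay at 0.20, 0.12 and 1.86 in saline mice, against 1.76, 2.41 and 1.80 in rhTM mice. It repeated the pattern of Cd247, with a difference of 1.26 ± 0.50 (adjusted p = 0.147) that was 0.13 against saline 3.

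The CD3 chains differed less than Cd247 and Cd4. Cd3e lay at 0.01, 0.27 and 0.69 in saline mice, against 0.38, 0.82 and 1.04 in rhTM mice, with overlapping groups (0.43 ± 0.27, adjusted p = 0.308, 0.06 against saline 3). Cd3d lay at -3.52, -3.69 and -3.12 in saline mice, against -3.10, -2.95 and -2.00 in rhTM mice, so that its groups did not overlap, though rhTM 1 and saline 3 were almost equal (0.76 ± 0.34, adjusted p = 0.183, 0.44 against saline 3). Cd8b1, the beta chain of the cytotoxic T cell coreceptor, was the steadiest, at -3.10, -2.93 and -2.99 in saline mice, against -3.01, -2.78 and -2.25 in rhTM mice (0.32 ± 0.24, adjusted p = 0.383, 0.30 against saline 3). Cd3g and the alpha chain gene Cd8a were well above background on none of the arrays.

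Among genes of T cell costimulation and adhesion, Cd2 came nearest to passing. Cd2, an adhesion receptor of T and NK cells, lay at -5.88, -4.61 and -4.21 in saline mice, against -3.53, -3.02 and -2.76 in rhTM mice. Every rhTM array was above every saline array, the difference was 1.80 ± 0.46 (3.48-fold, adjusted p = 0.0703), and 1.11 remained against saline 3. With the replicate number as a block Cd2 was the one lymphocyte gene called (adjusted p = 0.0436), where 2.43% of all genes were called higher and 1.65% lower. Its probe was well above background on 2 of 3 saline arrays, and normexp background correction reduced the difference to 0.37. Normexp was run with an offset of 50, which by itself compresses differences between dim signals, here and for the genes below.

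Cd28, the costimulatory receptor engaged by CD80 and CD86, lay at -1.45, -1.03 and -2.25 in saline mice, against -0.68, -0.89 and -0.94 in rhTM mice. Here saline 3 was the lowest array, so the difference grew from 0.74 ± 0.33 (adjusted p = 0.180) to 1.41 within slide 2. With the slide as a block Cd28 was the only one of the 24 called (adjusted p = 0.0397), where 3.83% of all genes were called higher and 1.95% lower. Cd5, a negative regulator of receptor signalling, lay at -5.72, -4.75 and -4.05 in saline mice, against -3.98, -3.89 and -3.45 in rhTM mice (1.06 ± 0.43, adjusted p = 0.154, 0.28 against saline 3), and normexp left a difference of 0.049. The TNF receptor family member Cd27 was well above background on none of the arrays.

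The proximal signalling genes did not pass the test. The Src family kinase gene Lck lay at -3.00, -2.94 and -2.35 in saline mice, against -3.05, -2.66 and -1.85 in rhTM mice (0.24 ± 0.36, adjusted p = 0.658, -0.17 against saline 3). Zap70, the kinase recruited to the phosphorylated receptor, lay at -4.09, -3.95 and -4.66 in saline mice, against -4.10, -4.25 and -3.25 in rhTM mice (0.37 ± 0.34, adjusted p = 0.477, 0.79 against saline 3). The adaptor gene Lat lay at -4.35, -3.77 and -4.40 in saline mice, against -4.75, -3.94 and -3.34 in rhTM mice (0.16 ± 0.39, adjusted p = 0.799, 0.39 against saline 3). In all 3 genes the groups overlapped and rhTM 3 was the highest array.

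Of the lineage transcription factors, Bcl11b, which maintains T cell identity, was the one tested. It lay at -5.38, -5.66 and -4.01 in saline mice, against -3.73, -3.67 and -3.93 in rhTM mice, with 1 of 3 saline arrays well above background (1.24 ± 0.43, adjusted p = 0.120, 0.23 against saline 3). Saline 3 was again near the rhTM arrays, and normexp left a difference of 0.16. No array read Tcf7, a factor of naive and memory T cells, or Eomes, a T-box factor of cytotoxic cells, well above background, and the related T-bet gene Tbx21 was so on 1 saline and 2 rhTM arrays, in neither group on all 3, and was not tested.

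The cytotoxic granule genes were measured on all 6 arrays, and each differed between groups by less than the SD within at least 1 of them. Gzma, a granzyme abundant in NK cells, lay at -0.05, 0.62 and 1.95 in saline mice, against 0.49, 0.70 and 3.13 in rhTM mice. Gzmb, the granzyme that cleaves caspases in target cells, lay at -2.96, -2.15 and -2.37 in saline mice, against -4.84, -4.21 and -1.07 in rhTM mice. For both genes rhTM 3 was the highest of all arrays, while the other two rhTM arrays lay below saline 3, and for Gzmb below every saline array.

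The pore-forming perforin gene Prf1 lay at -2.34, -2.24 and -0.93 in saline mice, against -1.80, -1.23 and -0.63 in rhTM mice. Nkg7, a granule membrane protein that promotes degranulation, lay at -3.41, -2.36 and -3.35 in saline mice, against -2.95, -2.56 and -0.79 in rhTM mice. The differences were 0.60 ± 0.82 for Gzma, -0.88 ± 0.94 for Gzmb, 0.62 ± 0.47 for Prf1 and 0.94 ± 0.60 for Nkg7, none called (adjusted p 0.318 to 0.637). Against saline 3 they were -0.51 for Gzma, -1.003 for Gzmb, -0.29 for Prf1 and 1.25 for Nkg7. Gzmb was the one gene of the 24 with a lower mean in rhTM hearts, and rhTM 3 decided its value. Without that array its difference was -2.03 and it was called lower (adjusted p = 0.0389, with 3.48% of all genes called lower), and Gzma turned from 0.60 to -0.24.

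**Figure D2:**
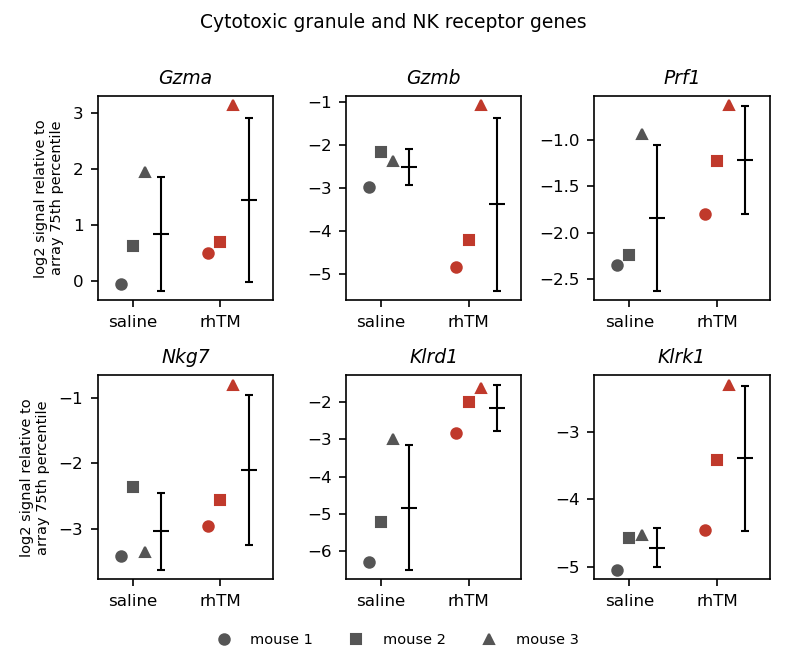
Log2 signal relative to the array's 75th percentile for 4 granule genes and 2 NK receptor genes, with 1 point per mouse (grey saline, red rhTM, symbol by mouse number) and bars for the mean ± SD (n = 3). The third rhTM mouse is the highest point in all panels, and Gzmb is lower in the other two rhTM mice (-4.84 and -4.21) than in any saline mouse.

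The 4 granule genes had rhTM 3 as their highest array, which was so for 16 of the 24 genes tested. Their promoters are shown here. They are the 250 bases before the annotated start in RefSeq (GRCm38.p6), written 5′ to 3′ along the gene, with matches on either strand in capitals to a T-box motif (AGGTGTGA), a RUNX motif (TGTGGTT) and an ETS core (AGGAAG), sites of factor families that act in cytotoxic cells. A match is a description of these letters and not a measured site.
Gzma (chr13:113100982-113101231, minus strand): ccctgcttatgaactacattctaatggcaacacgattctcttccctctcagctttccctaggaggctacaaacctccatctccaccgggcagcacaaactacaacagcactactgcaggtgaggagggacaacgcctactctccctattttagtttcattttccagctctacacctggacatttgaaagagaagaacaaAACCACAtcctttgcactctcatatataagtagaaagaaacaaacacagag
Gzmb (chr14:56262335-56262584, minus strand): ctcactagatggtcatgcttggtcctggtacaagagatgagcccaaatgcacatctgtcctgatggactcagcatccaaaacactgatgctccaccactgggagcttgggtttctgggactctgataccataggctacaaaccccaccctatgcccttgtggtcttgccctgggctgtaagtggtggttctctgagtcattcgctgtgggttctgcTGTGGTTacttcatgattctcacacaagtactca
Prf1 (chr10:61297586-61297835, plus strand): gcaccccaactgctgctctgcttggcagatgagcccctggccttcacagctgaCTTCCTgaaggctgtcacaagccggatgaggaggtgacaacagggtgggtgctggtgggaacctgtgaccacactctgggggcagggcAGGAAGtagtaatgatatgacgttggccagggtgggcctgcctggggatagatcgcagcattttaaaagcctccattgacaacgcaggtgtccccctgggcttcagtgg
Nkg7 (chr7:43436888-43437137, plus strand): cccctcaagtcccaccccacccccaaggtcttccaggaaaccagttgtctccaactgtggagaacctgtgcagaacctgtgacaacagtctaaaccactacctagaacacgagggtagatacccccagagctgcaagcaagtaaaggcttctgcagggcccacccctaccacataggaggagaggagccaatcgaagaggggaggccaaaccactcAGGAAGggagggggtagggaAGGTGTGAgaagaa
Gzma and Gzmb each held the RUNX letters, Prf1 the ETS core, and Nkg7 the T-box letters and the ETS core. Of 32851 RefSeq promoters cut to the same length, 1.12% held the T-box letters, 4.40% the RUNX letters and 29.5% the ETS core. Counted by gene, since some genes have several promoters, the shares were 1.30%, 5.08% and 32.3% of 27025 genes. Among the 26 lymphocyte genes with a promoter in that table, 1 held the T-box letters, 5 the RUNX letters and 13 the ETS core. No match of one motif overlapped a match of another in these promoters, and the arrays measured no binding.

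The NK receptor genes had the largest difference of the list, but from dim signals. Klrd1 encodes CD94, the partner chain of the NKG2 receptors, and lay at -6.29, -5.21 and -3.00 in saline mice, against -2.83, -2.00 and -1.63 in rhTM mice. The groups did not overlap, yet saline 1 and 2 were not well above background and saline 3 lay close to rhTM 1. The difference of 2.68 ± 0.82 (6.39-fold) did not pass (adjusted p = 0.0974), was 0.84 against saline 3 and was reduced to 0.73 by normexp. Klrk1, the activating receptor NKG2D, lay at -5.05, -4.57 and -4.52 in saline mice, against -4.45, -3.43 and -2.30 in rhTM mice (1.32 ± 0.53, adjusted p = 0.150, 1.13 against saline 3), with 1 of 3 saline arrays well above background and 0.24 left by normexp. Klrb1c (NK1.1) and Ncr1 (NKp46), the receptors by which mouse NK cells are usually identified, were well above background on none of the arrays.

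Both lymphocyte cytokine receptor genes were tested. The interleukin-7 receptor gene Il7r, needed for T cell survival, was highest in saline 3 (-4.03, -3.89 and -2.72 in saline, -3.24, -3.04 and -3.54 in rhTM hearts), so its small difference of 0.27 ± 0.38 (adjusted p = 0.645) turned to -0.56 within slide 2. Il2rb, the beta chain of the interleukin-2 receptor, lay at -4.01, -3.52 and -4.57 in saline mice, against -4.27, -3.81 and -2.78 in rhTM mice (0.41 ± 0.45, adjusted p = 0.546, 0.95 against saline 3), and its sign depended on rhTM 3, without which it was -0.0065.

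B cell genes were measured in 3 of 6 cases. Cd22, an inhibitory coreceptor of B cells, lay at -1.29, -1.22 and -0.42 in saline mice, against 0.31, 0.14 and 0.11 in rhTM mice. Its rhTM arrays were close together and above every saline array, and it had the lowest adjusted p of the list (1.16 ± 0.27, 2.24-fold, adjusted p = 0.0602, 0.61 against saline 3). Pax5, the transcription factor of B cell identity, lay at -3.79, -4.34 and -2.71 in saline mice, against -3.03, -2.55 and -2.62 in rhTM mice (0.88 ± 0.42, adjusted p = 0.205), a difference that was -0.02 within slide 2.

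Cd79b, a signalling chain of the B cell receptor, lay at -2.97, -2.91 and -3.63 in saline mice, against -2.77, -2.70 and -2.86 in rhTM mice (0.39 ± 0.24, adjusted p = 0.297). As for Cd28, saline 3 was its lowest array, and within slide 2 the difference was 0.85 (adjusted p = 0.0510 with slide blocked). The other signalling chain, Cd79a, was well above background on 1 of 6 arrays, and the CD20 gene Ms4a1 and the kinase gene Blk were so on none. Of the plasma cell genes, Mzb1, a chaperone of antibody secretion, lay at -3.42, -3.18 and -4.05 in saline mice, against -3.35, -3.44 and -3.42 in rhTM mice (0.14 ± 0.26, adjusted p = 0.728, 0.64 against saline 3), and Jchain, the joining chain of polymeric antibodies, was well above background on none of the arrays.

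In 9 of the 24 genes tested the rhTM arrays all lay above the saline arrays, where 17% of all genes did, and in 0 did they all lie below, where 18.7% of all genes did. Those 9 were Cd3d, Cd2, Cd5, Cd28, Bcl11b, Klrd1, Klrk1, Cd79b and Cd22, and 5 of them had passed the filter only through their rhTM arrays. Of the 16 genes measured on all 6 arrays, 4 had every rhTM array above the saline arrays, against 15.3% of all genes measured that fully. Saline 3 lay above both other saline arrays in 10 of the 16 genes measured on all 6 arrays, against 42.8% of all such genes. Leaving out saline 3, which leaves slide 1 against slide 2, 9 genes were called higher (20.5% of all genes were), among them Cd247, Cd4 and Klrd1. Some of these, Klrd1 among them, had passed the filter only through their rhTM arrays. Of the 16 genes measured on all 6 arrays, 5 were called higher, against 18.4% of all genes measured that fully. Array weights called 14 higher and 1 lower, and 31.7% and 31.2% of all genes with them. Within the same 16 they called 9 higher and 1 lower, against 29.4% and 32.5% of all such genes. The deposited value table, which has a separate baseline for each slide, called 6 higher and 15% of all genes. Within the 16 it called 4 higher, against 14% of all such genes.

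**Figure D3:**
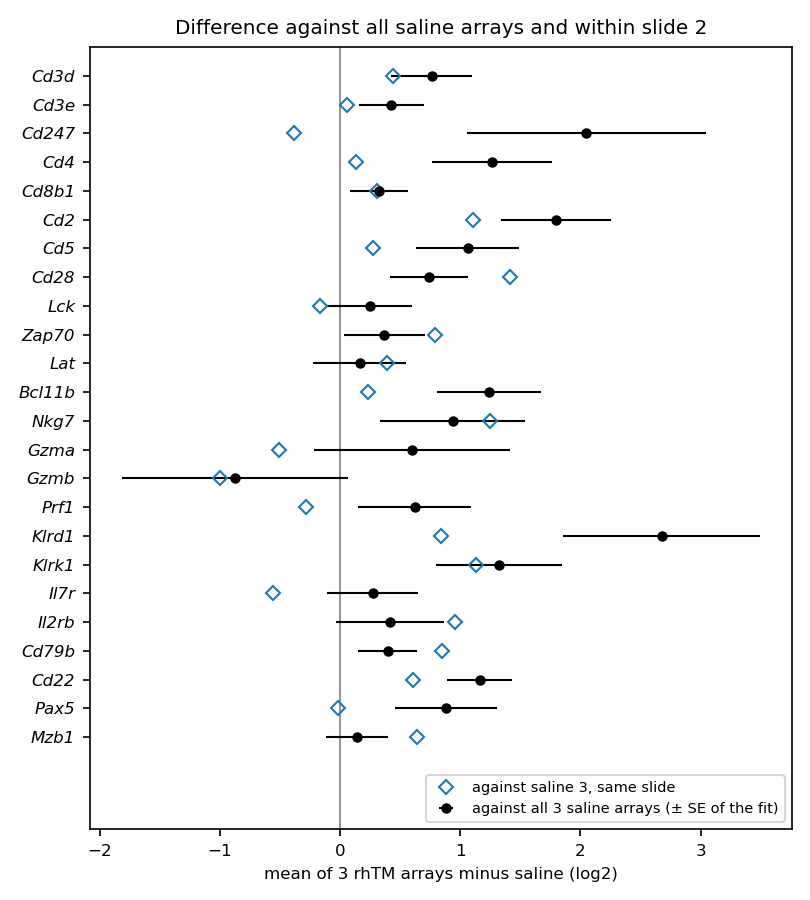
Difference in log2 signal between the mean of 3 rhTM arrays and saline for the 24 genes tested. Black points are against all 3 saline arrays with the SE of the fit, and blue diamonds are against saline 3 on the same slide. Among the diamonds, Cd247, Lck, Gzma, Gzmb, Prf1, Il7r and Pax5 lie below 0 and Cd28, Nkg7, Cd2 and Klrk1 above 1.

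The third rhTM mouse stood apart within its group. Its array was the highest of the 6 in 16 of the 24 genes tested, compared with 12.4% of all genes, but 7 of the 16 had passed the filter only through their rhTM arrays. Among the 16 genes measured on all 6 arrays it was the highest in 9, against 11% of all such genes. The pan-leukocyte markers Ptprc, Coro1a, Laptm5, Ptprcap, Cd53 and Cd52 were all measured and none was called. Their summed signal was 11.2, 17.5 and 34.3 in the saline mice, against 9.12, 12.1 and 33.9 in the rhTM mice, in units of each array's 75th percentile. Neutrophil markers, 7 of 8 of them measured, summed to 135, 216 and 1034 in saline mice, against 104, 85.0 and 486 in rhTM mice, so that the third mouse of each group was high. Csf3r, at 6.60 and 6.37, was the brightest of them on rhTM 1 and 2 and differed by 0.18. The other 6 had lower means in rhTM mice, none called, and the median over the 7 was -3.40 (-5.30 against saline 3). Mmp9 had passed the filter only through its saline arrays. The granule genes summed to 1.39, 2.17 and 4.68 in saline mice, against 1.86, 2.27 and 10.4 in rhTM mice, and the part of leukocyte number in their values was not tested.

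**Figure D4:**
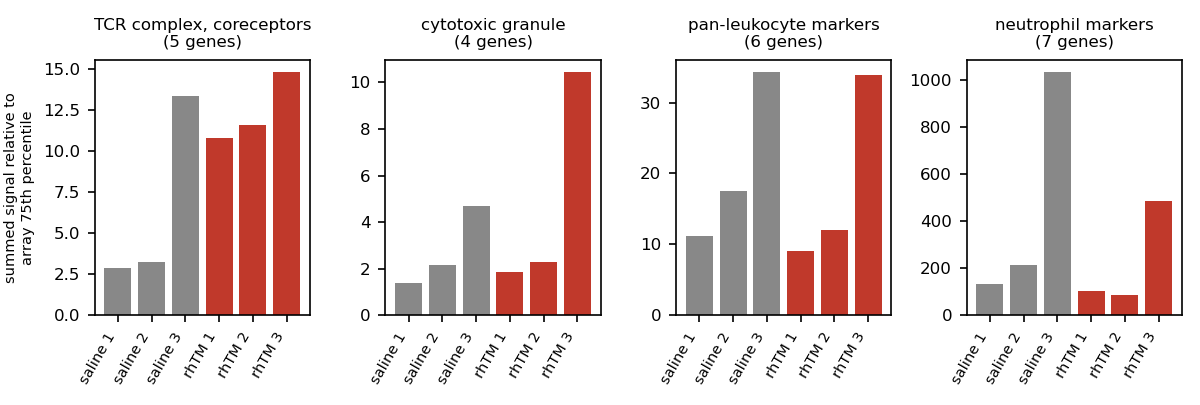
Summed signal of 4 gene groups on each array, in units of the array's 75th percentile (grey saline, red rhTM, bars from 0). The third mouse of each group is the highest of its group in every panel, and for the T cell receptor group saline 3 (13.3) lies above rhTM 1 and 2 (10.8 and 11.6) while saline 1 and 2 are low (2.88 and 3.25). Sums follow the brightest genes. These were Cd247 and Cd4 in the T cell receptor group on saline 3 and the rhTM arrays, and Gzma in the granule group.

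The thymus lies on top of the heart and could be sampled with it. Of 11 markers of thymocytes and thymic epithelium, the recombinase genes Rag1 and Rag2, the pre-T cell receptor gene Ptcra and the epithelial genes Foxn1, Psmb11 and Aire were well above background on none of the arrays. Of the other 5, Arpp21 was so on 4 arrays (2 in each group), and Ccr9 and the protease gene Prss16 on 1 saline array each, Prss16 on saline 3 at -2.89 against -5.16 to -7.51 on the others. The summed signal of the 2 tested, Dntt and Ccl25, was 0.376, 0.494 and 0.699 in saline mice, against 0.708, 0.684 and 0.697 in rhTM mice, and neither was called (adjusted p 0.254 and 0.289). Of 10 monocyte and macrophage markers, 1 was called higher, the fractalkine receptor gene Cx3cr1, which NK cells also express. Its difference was 4.40 ± 0.57 (adjusted p = 0.0244, 4.21 against saline 3), from a probe well above background on 1 of 3 saline arrays. Cx3cr1 stayed called with the replicate number blocked (adjusted p = 0.0390) and lost its call with slide blocked (adjusted p = 0.0549). The means of 7 of the 10 were higher in rhTM mice (median 0.31, and 0.64 against saline 3). Their summed signal, 169, 174 and 118 in saline mice, against 67.2, 76.6 and 113 in rhTM mice, ran the other way because Ly6c2, the brightest of them, was lower (-1.38, not called, adjusted p = 0.0631).

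Further genes of the same cell types were examined as 3 lists, and 7 of their members passed the test, all higher with rhTM. Over all genes tested, 2.75% were called higher and 2.41% lower, and the median difference was 0.01. Of 15 other T cell genes tested from 36, 1 was called higher and 0 lower, and their median of 0.11 turned to -0.50 against saline 3. Of these 15, 4 had passed the filter only through their rhTM arrays and 1 only through its saline arrays. The 10 measured on all 6 arrays had a median of -0.03 (-0.61 against saline 3). Of 16 other B and plasma cell genes tested from 27, 3 were called higher and 0 lower, and their median of 0.25 turned to -0.09 against saline 3. Of these 16, 2 had passed the filter only through their saline arrays. The 14 measured on all 6 arrays had a median of 0.29, which was 0.15 against saline 3 and so did not turn. Of 14 other NK and cytotoxic genes tested from 29 (26 with a probe), 3 were called higher and 0 lower, with a median of 1.10 (0.75 against saline 3). In that list 5 genes, the 3 called among them, had passed the filter only through their rhTM arrays, and the 9 measured on all 6 arrays had a median of 0.37 (0.23 against saline 3) and 0 calls. None of the 7 stayed called without saline 1, rhTM 1 or rhTM 2, and without saline 2 only Cd72 and Xcl1 did (adjusted p = 0.0467 for each).

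Xcl1, the lymphotactin gene that NK cells and activated CD8 T cells use to attract cross-presenting dendritic cells, lay at -7.01, -7.18 and -6.62 in saline mice, against -4.31, -4.02 and -3.93 in rhTM mice. No saline array and all 3 rhTM arrays read it well above background, so its change was at least 1.67-fold (adjusted p = 0.0129). It stayed called when slide (adjusted p = 0.0210) or replicate number (adjusted p = 0.0390) entered the fit as a block. With normexp, which compresses dim signals, it differed by 0.26 and was not called.

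The Ly49 receptors of NK cells, lectin-like receptors for class I molecules, were higher in 2 called members. Klra8, the activating receptor Ly49H of C57BL/6 mice, rose from -5.29, -4.23 and -4.29 to -1.27, -1.91 and -2.41 (2.74 ± 0.40, adjusted p = 0.0284, 2.43 against saline 3). Klra9 rose by 2.03 ± 0.40 (adjusted p = 0.0441, 1.61 against saline 3). Neither stayed called when slide (0.0689 and 0.117) or replicate number (0.0517 and 0.0706) was blocked, and for each 1 of 3 saline arrays was well above background. With normexp they differed by 0.95 and 0.43 and were not called (adjusted p = 0.106 and 0.336). All 5 Ly49 genes tested had a higher mean with rhTM, those of Klra4 and Klra7 against saline arrays that were all not well above background (at least 2.99-fold and 1.87-fold, not called), but their sequences are so alike that probes may share transcripts, and they cannot be counted as separate genes. Klra1, at -0.68, -0.05 and 3.53 in saline mice, against 3.96, 3.51 and 3.80 in rhTM mice, repeated the pattern of Cd247, with saline 3 inside the rhTM range.

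Among B cell genes, Cd72, a coreceptor that restrains B cell receptor signalling, rose from -3.26, -3.08 and -3.53 to -0.90, -0.51 and -0.87. The 2.53 ± 0.21 (5.77-fold, adjusted p = 0.0129) was 2.77 against saline 3 and stayed called when slide (0.0210) or replicate number (0.0390) was blocked. The other probe of Cd72 differed by 1.58, with overlapping groups. That probe was highest on saline 2 (-2.41) and well above background on 1 of 3 saline arrays. With all probes of a gene averaged, Cd72 was not called (adjusted p = 0.0837). Blnk, the adaptor that links the B cell receptor kinase to its targets, rose from -0.99, -0.70 and -1.52 to 0.77, 1.38 and 0.15 (1.84 ± 0.37, adjusted p = 0.0456, 2.29 against saline 3), and stayed called with the replicate number (0.0390) but not with the slide as a block (0.0550). Ralgps2, a guanine nucleotide exchange factor, rose by 1.28 ± 0.25 (adjusted p = 0.0447, 1.35 against saline 3), but its other probes differed by -0.72 and -0.24 and the call was lost in both blocked fits (0.0791 and 0.0543). The T cell adaptor gene Sh2d2a rose by 1.15 ± 0.22 (adjusted p = 0.0441, 0.77 against saline 3) and lost its call in both blocked fits (0.0666 and 0.0612). Its other probe differed by 0.70 (1.39 against saline 3), with overlapping groups.

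**Figure D5:**
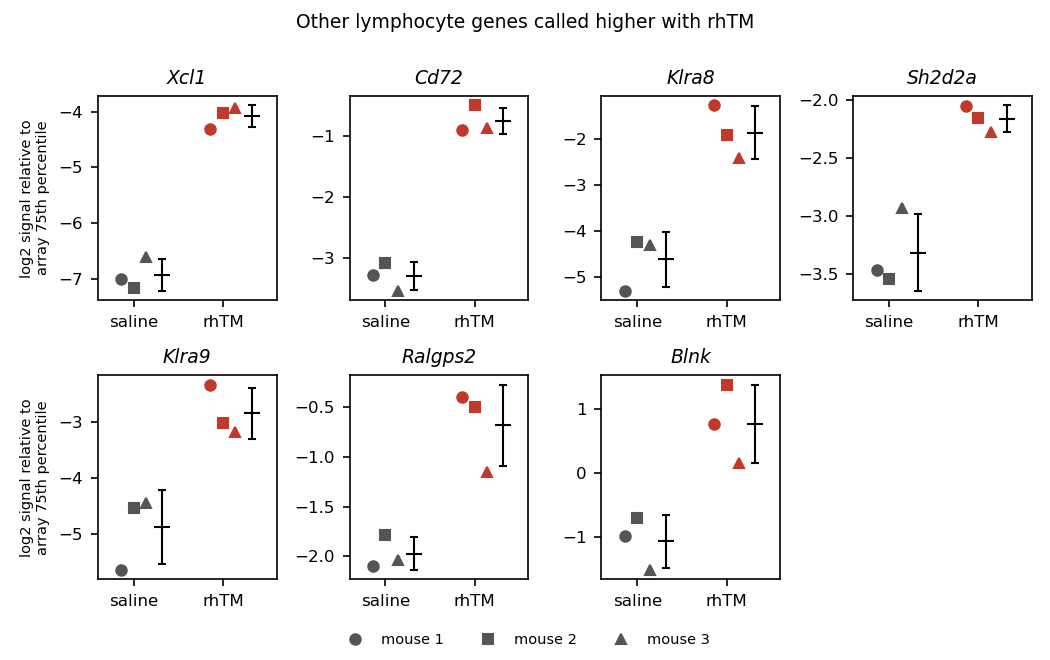
Log2 signal relative to the array's 75th percentile for the 7 further lymphocyte genes called higher with rhTM, with 1 point per mouse (grey saline, red rhTM) and bars for the mean ± SD (n = 3). In each panel the rhTM mice lie above the saline mice, most clearly for Xcl1 and Cd72, and saline 3 lies with saline 1 and 2.

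Several lymphocyte genes have probes that did not measure alike. Of the 36 genes, 12 had more than 1 probe, and of their 15 further probes 9 were never well above background. Cd247 was read from a probe for transcript NM_001113391, while its probes for NM_031162 and NM_001113393 were well above background on none of the arrays, and averaging the 3 gave a difference of 0.28 in place of 2.05. Cd22 was read from a probe for NM_001043317, and its other 2 probes were likewise never well above background. The further probes of Cd3d and Cd4 were well above background on no saline array and on all rhTM arrays. Against the mean of the saline arrays they were at least 1.71-fold and 1.29-fold higher. Their groups overlapped, with saline 3 inside the rhTM range, and against saline 3 they differed by 0.47 and 0.45 (log2). The further probe of Cd3e differed by 1.40 but by 0.02 against saline 3.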

How the data were processed

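Cy3-labelled cRNA was hybridised to 1-colour Agilent arrays. The deposited scanner files give an intensity per spot. Agilent Feature Extraction 10.7.3.1 made them per the file headers, although version 9.1 is what the submitters' processing notes give. The processed signal is background-corrected but carries no scaling across arrays. Values of the deposited table are on a log2 scale by comparison with the scanner files. Set against the scanner values it equalled the scaled log2 signal minus a baseline per probe, the same within a slide (SD of the difference at most 2.28e-05) and different between slides (SD 0.819), and its columns had medians of -0.02 (saline 1), -0.16 (saline 2), 0.10 (saline 3), -0.08 (rhTM 1), 0.03 (rhTM 2) and 0.09 (rhTM 3).

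From the processed signal, log2 minus the array's 75th percentile was taken, spots flagged as outliers were left out (368 of 56605 probes were lost), spots of a probe were averaged, and 32789 probes were named through RefSeq accessions (GRCm38.p6). Each gene was read from its brightest probe on average. Limma 3.58.1 in R 4.3.3 (lmFit, eBayes, group as the only term) was run on all 14701 genes, with Benjamini-Hochberg adjustment over them, and was tested on simulated data. Where no array of a group read a probe well above background, its fold is a lower bound, set against each dim array's detection floor (its dimmest signal passing the software's mark) or the probe's own signal if that was higher.

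The labels number the mice 1 to 3 in both groups and name no shared litter. Same-numbered arrays deviated together from their group means, with correlations of 0.319, 0.235 and 0.372 over the genes, which are not independent, so the number was treated as a block in an alternative fit. Of the differently numbered pairs, saline 1 with rhTM 2 (0.314) and saline 2 with rhTM 1 (0.129) also correlated above 0, and the other 4 were below it. All 24 genes tested are named, with the called genes of the further lists. The members and lists were chosen with earlier results of these data known. Array number limits precision.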

Additional observations from a re-analysis of the deposited data

How the results depend on the processing

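Over all genes 760 were called, against 9244 with array weights, 4519 in the deposited table, 151 with no filter on dim probes, 412 with normexp on the median signal (an alternative added after seeing the data, in place of one on the mean signal, which was not run), and 0 to 5815 when single arrays were left out, the highest without saline 3 and the lowest, 0, without rhTM 1 (limma, 2585 genes with an unadjusted p under 0.05). For the lymphocyte genes, 0 were called in the chosen fit, 15 with array weights, 6 in the deposited table, 1 with the replicate block (Cd2), 1 with the slide as a block (Cd28) and 0 to 9 with single arrays left out (1 without rhTM 3 and 9 without saline 3). The replicate block changed no other call among the 24. Their median stayed above 0 throughout, from 0.23 with normexp and 0.35 with the slide as a block to 0.94 without rhTM 1. These counts and medians include the 8 genes that entered through their rhTM arrays, whose direction was fixed in part by the filter. Against saline 3 those 8 had a median of 0.82, and the 16 measured on all 6 arrays one of 0.095.

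The further NK list had 3 calls, against 9 with array weights, 7 in the deposited table, 1 with no filter, 0 with normexp, 0 when every one of the 6 arrays had to pass the background mark and 0 to 6 with single arrays left out. The further B cell list had 3, against 11, 8 and 1 in the first 3 of these settings and 0 to 6. The further T cell list had 1, against 9, 5 and 0 in those settings, 0 with normexp, 0 with the slide as a block and 0 to 6.

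Directions turned in some settings, none of them a called value. With the slide as a block Cd247 was -0.38, Gzma -0.51, Il7r -0.56, Lck -0.17, Pax5 -0.021 and Prf1 -0.29. With normexp Il2rb was -0.045, Il7r -0.093, Lat -0.21, Mzb1 -0.10 and Zap70 -0.081. In the deposited table Il7r was -0.23, Pax5 -0.020 and Prf1 -0.41. With quantile normalization Il7r was -0.012, Lat -0.15 and Mzb1 -0.11. With array weights Il2rb was -0.010, Mzb1 -0.085 and Zap70 -0.15. With single arrays left out, Gzma ran from -0.24 to 1.15, Il2rb from -0.0065 to 0.74, Lat from -0.17 to 0.53 and Lck from -0.088 to 0.51, each lowest without rhTM 3, and Mzb1 from -0.11 (without saline 3) to 0.33. The cause of these turns was not tested. Dim signals limit the NK genes and dim T cell genes such as Cd5 and Bcl11b, whose differences shrank with normexp. Its offset of 50 compresses dim signals in any case, so the part of the background itself was not tested.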
